A study of Mus musculus with 2 samples.

Results

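A set of 10 genes of bone morphogenetic protein (BMP) signalling were examined in mouse embryonic stem cells: the ligand gene Bmp4, the receptor genes Bmpr1a and Bmpr2, the signal transducer genes Smad1 and Smad5, the inhibitor gene Smad7 and the target genes Id1, Id2, Id3 and Id4. The set was a list of symbols, chosen with earlier results of these data known. All 10 of 10 were found by symbol with GENCODE M21 among the 47643 gene IDs of the count tables, and each had reads in both libraries. The polyA RNA came from E14 cells of the 129/Ola background, labelled as lacking both Ago1 and Ago2, which encode Argonaute proteins. They were grown with 15% serum and 100 U/mL LIF, a cytokine that sustains self-renewal, on dishes coated with 0.2% gelatine. The 2 libraries, replicate 2 and replicate 1, carry this 1 genotype label, so no value here measures an effect of the Argonaute loss. The labels name the libraries KO1 and KO2 but give no clone or culture of origin. SDs therefore describe the spread of these samples alone, and that spread may be technical. P-values compare the reads of these 2 libraries alone.

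Serum carries BMP activity, and embryonic stem cells also make BMP4. BMP ligands bind a complex of type I receptors, such as the product of Bmpr1a, and type II receptors, such as that of Bmpr2. The type I kinase then phosphorylates SMAD1 and SMAD5, which enter the nucleus with SMAD4 and induce Id genes. Id proteins lack a DNA-binding region and hold E proteins in inactive pairs, which in mouse embryonic stem cells restrains neural differentiation alongside LIF. SMAD7 is induced by signals of this superfamily and blocks the receptors in turn.

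Total counts were 29789560 in replicate 2 and 34798975 in replicate 1, so 1 count equals 0.0336 and 0.0287 CPM (counts scaled to the library total), in that order. The labelled targets had reads in both libraries: Ago1 stood at 141 CPM in replicate 2 and 70.8 CPM in replicate 1, and Ago2 at 129 and 124 CPM. Ago1 differed between the libraries by 0.99 ± 0.04 on the log2 scale (counting SE), past edgeR's exact test (adjusted p = 1.37e-08), and Ago2 by 0.06 ± 0.03 (adjusted p = 1.00 in that test). Gene counts sum all exons, so they do not check an edit, and the genotype rests on the label alone. The cell label was checked with short marker lists. All 8 embryonic stem cell markers reached 1 CPM in both libraries, with a summed level of 16307 TPM (scaled for exon length and then for the library) in replicate 2 and 17912 TPM in replicate 1. Of the mesoderm and endoderm markers, 1 of 6 each reached 1 CPM, with sums between 3.33 and 4.75 TPM in either library. Of the neuroectoderm, trophoblast and fibroblast markers, 4 of 6, 2 of 6 and 3 of 7 did, led by Tubb3, Krt8 and Vim. Their sums were 81.7, 315 and 55.4 TPM in replicate 2 and 82.2, 360.4 and 61.0 TPM in replicate 1. Of the trophoblast list, Krt8 and Krt18 reached 1 CPM, and Cdx2, Elf5 and Gcm1 did not. Of the neuroectoderm list, Pax6 stood at 0.624 TPM in replicate 2 and 0.55 TPM in replicate 1, and Sox1 at 0.784 and 0.707 TPM. Nes, of the same list, stood at 12.7 and 13.8 TPM, and Thy1, of the fibroblast list, at 21.2 and 22.8 TPM. The mesoderm marker Kdr, the endoderm marker Gata4 and the fibroblast marker Col1a1 also reached 1 CPM in both libraries. Olig2, Dcx, Tpbpa, Col3a1, Lum, Afp and Alb had no count. Whether cells of these other types were present, and their part in the values below, was not tested. In bulk RNA fewer cells with a transcript and less of it per cell cannot be told apart.

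Argonaute proteins carry microRNAs to their targets, and 2 of them are named in the genotype label, so seeds of microRNAs known from embryonic stem cells and their matches in the members' 3′ UTRs are shown first. The mature sequences are from RefSeq (GRCm38.p6), with the seed, bases 2 to 8, in capitals. The first pair shares the seed AAGUGCU, as does miR-295-3p, and the second pair shares the seed AAAGUGC, as does miR-93-5p.
miR-291a-3p: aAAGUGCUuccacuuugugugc
miR-294-3p: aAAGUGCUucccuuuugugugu
miR-17-5p: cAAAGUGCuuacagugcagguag
miR-20a-5p: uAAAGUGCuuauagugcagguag

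A match was the exact reverse complement of a seed on the transcript strand: AGCACTT for the miR-290 seed, GCACTTT for the miR-17 seed and CTACCTC for the let-7 seed. The longest annotated 3′ UTR of each gene was read, in the reference genome and not in 129/Ola. Smad5 held 2 matches to the miR-290 seed in 4899 bases, and no other member held one. Of 765 expressed genes with a 3′ UTR of like length, 50.1% held at least 1. The miR-17 seed matched 2 places in Bmpr2 and 1 each in Smad5, Smad7 and Id4. The shares of genes of like 3′ UTR length with that match were 56.2% for Bmpr2, 40.7% for Smad5, 15.4% for Smad7 and 27.2% for Id4. The let-7 seed matched none of the 10. Over all 12382 expressed genes with a 3′ UTR, 17.5, 14.4 and 10.6% held a match to the miR-290, miR-17 and let-7 seeds. The short UTRs of Id1, Id2, Id3 and Bmp4, of 339 to 785 bases, held no match to any of the 3 seeds. Neither did the longer UTRs of Bmpr1a, of 3810 bases, and Smad1, of 2041 bases. The matches outside Smad7 are printed on the plus strand of GRCm38, with the matching bases in capitals.
Smad5, miR-290 seed, chr13:56740746-56740772: cacttccctggcAGCACTTgggtccct
Smad5, miR-290 seed, chr13:56741474-56741500: ggtcagtgctcgAGCACTTagcaggca
Smad5, miR-17 seed, chr13:56738244-56738270: tcttttcattttGCACTTTtatgggtg
Bmpr2, miR-17 seed, chr1:59870674-59870700: tttttaagttttGCACTTTtgtttagt
Bmpr2, miR-17 seed, chr1:59874350-59874376: tggtatcacactGCACTTTtactctgt
Id4, miR-17 seed, chr13:48265185-48265211: ttattaaaaaggGCACTTTttgccttt
A match describes these letters and shows no binding, and levels of microRNAs were not analysed here.

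Of the 10 genes, the target Id1 had the highest level per length and the transducer Smad1 the lowest. Id1 (ENSMUSG00000042745, GRCm38 chr2:152736251-152737410, plus strand) stood at 99.0 TPM in replicate 2 and 96.7 TPM in replicate 1, from 1243 and 1412 counts. Of 12530 protein-coding genes that reached 1 CPM in both libraries, 89.6% lay below Id1 in mean TPM. Smad1 (ENSMUSG00000031681, chr8:79338395-79399518, minus strand) stood at 4.03 TPM in replicate 2 and 3.93 TPM in replicate 1, above 17.8% of those genes. The 10 genes thus spanned most of the range of expressed genes. Their median log2(TPM + 1) was 4.38 in replicate 2 and 4.34 in replicate 1, beside 4.20 over all expressed protein-coding genes.

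**Figure D1:**
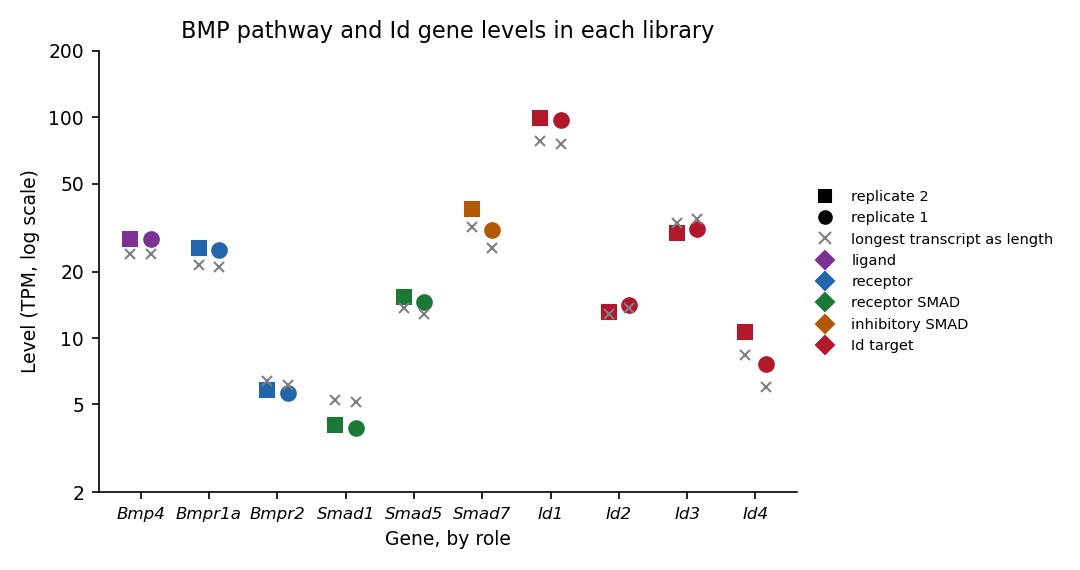
Level of each gene in TPM on a log axis, with genes grouped by role, replicate 2 as squares and replicate 1 as circles. Grey crosses give the level when the longest transcript is taken as the length. Id1 stands near 100 TPM in both libraries and Smad1 near 4 TPM, and the pairs of points lie apart for Smad7 and Id4.

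The ligand came first in the cascade. Bmp4 (ENSMUSG00000021835, chr14:46383520-46390669, minus strand) stood at 28.1 TPM in replicate 2 and 28.0 TPM in replicate 1, from 683 and 793 counts. Its level differed less between the libraries than that of any other member, and lay above 63.4% of expressed protein-coding genes. Of the 15 other BMP and GDF ligand genes listed, 4 reached 1 CPM in both libraries. Gdf3, a ligand gene tied to pluripotency, was the highest at 97.0 TPM in replicate 2 and 81.4 TPM in replicate 1. Bmp7 followed at 4.92 and 5.75 TPM and Bmp8a at 1.96 and 2.18 TPM, so that Bmp4 exceeded Bmp7 by 5.71-fold in replicate 2 and 4.87-fold in replicate 1. Bmp5, Bmp10 and Gdf2 had no count in either library. For a gene with no count, the 95% exact Poisson interval reaches 0.124 CPM in replicate 2 and 0.106 CPM in replicate 1.

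Of the receptors, the type I gene exceeded the type II gene. Bmpr1a (ENSMUSG00000021796, chr14:34410734-34503341, minus strand) stood at 25.5 TPM in replicate 2 and 25.1 TPM in replicate 1. Bmpr2 (ENSMUSG00000067336, chr1:59763400-59879014, plus strand) stood at 5.81 and 5.61 TPM. The ratio of Bmpr1a to Bmpr2 was 4.40 in replicate 2 and 4.47 in replicate 1, and with the longest transcript as the length it was 3.36 and 3.42. In CPM, which ignores length, they stood closer, at 59.0 and 57.7 CPM for Bmpr1a and 38.0 and 36.5 CPM for Bmpr2, whose annotated exons span 17983 bases against 6351 for Bmpr1a.

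Other receptors of the same class were mostly lower. The type I genes Acvr1, at 5.26 TPM in replicate 2 and 5.36 TPM in replicate 1, and Bmpr1b, at 0.325 and 0.466 TPM, lay below Bmpr1a. Bmpr1b did not reach 1 CPM in replicate 2. Of the type II genes, Acvr2b had 9.71 TPM in replicate 2 and 10.2 TPM in replicate 1, above Bmpr2 by 1.67 and 1.82-fold, or 1.48 and 1.62-fold with the longest transcript as the length. In CPM Acvr2b stood below Bmpr2, at 13.9 and 14.5 CPM. Acvr2a had 4.22 and 4.15 TPM. The co-receptor gene Eng was the highest of the 8 other receptors and co-receptors listed, at 25.9 TPM in replicate 2 and 32.8 TPM in replicate 1, and the co-receptor gene Rgmb stood at 2.32 and 2.45 TPM. In all, 7 of these 8 reached 1 CPM in both libraries.

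Among the receptor SMADs, Smad5 transcripts were more abundant than those of Smad1. Smad5 (ENSMUSG00000021540, chr13:56703010-56742377, plus strand) stood at 15.4 TPM in replicate 2 and 14.6 TPM in replicate 1, from 1235 and 1366 counts. The ratio of Smad5 to Smad1 was 3.82 in replicate 2 and 3.72 in replicate 1, and 2.59 and 2.53 with the longest transcript as the length. Smad9, the third receptor SMAD of this branch, had 5 and 8 counts, or 0.0860 and 0.118 TPM. The shared partner gene Smad4 stood at 41.8 TPM in replicate 2 and 42.3 TPM in replicate 1, above Smad5 by 2.72 and 2.89-fold. Of the 50-base stretches in transcripts of Smad5, 0.679% recur in other genes, and of Smad1 none do.

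The inhibitory SMAD exceeded both transducers in level. Smad7 (ENSMUSG00000025880, chr18:75367529-75395935, plus strand) had 1869 counts in replicate 2 and 1749 counts in replicate 1, or 38.2 and 30.7 TPM. It was the second of the 10 genes in mean TPM and above Smad5 by 2.48-fold in replicate 2 and 2.10-fold in replicate 1. The other inhibitory SMAD gene, Smad6, stood at 9.13 and 9.34 TPM, so Smad7 was 4.18 and 3.29-fold above it.

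Of the 4 Id genes, Id1 was followed by Id3, Id2 and Id4, and all 4 reached 1 CPM in both libraries. Id3 (ENSMUSG00000007872, chr4:136143497-136145755, plus strand) stood at 30.0 TPM in replicate 2 and 31.3 TPM in replicate 1, from 582 and 706 counts. Id2 (ENSMUSG00000020644, chr12:25093799-25097140, minus strand) stood at 13.1 and 14.1 TPM, from 345 and 433 counts. Id4 (ENSMUSG00000021379, chr13:48261228-48266026, plus strand) stood at 10.6 and 7.63 TPM, from 441 and 370 counts. The ranges of the 2 libraries did not overlap between any of these 4 genes.

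Id1 alone made up 64.7 ± 0.192% of the summed Id level in TPM (SD, n = 2 here and in the next shares), Id3 20.3 ± 0.882%, Id2 8.99 ± 0.607% and Id4 6.02 ± 1.30%. The Id1 transcript is short, with 1160 annotated exon bases against 3849 for Id4, so the scale matters. In CPM, Id1 made up 48.0%. Id4 then took 16.9% in replicate 2 and 12.7% in replicate 1, and Id2 13.2 and 14.8%, so the order of Id4 and Id2 turned between the libraries. The 4 Id genes together reached 153 TPM in replicate 2 and 149.7 TPM in replicate 1. That was 56.6 and 58.1% of the summed TPM of the 10 genes, against 27.3 and 28.0% in CPM. By role, the summed levels in replicate 2 and replicate 1 were 28.1 and 28.0 TPM for the ligand, 31.4 and 30.7 TPM for the receptors, 19.4 and 18.6 TPM for the transducers and 38.2 and 30.7 TPM for the inhibitor. Per length, then, the Id genes outweighed all other members together in both libraries, and in CPM they did not.

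**Figure D2:**
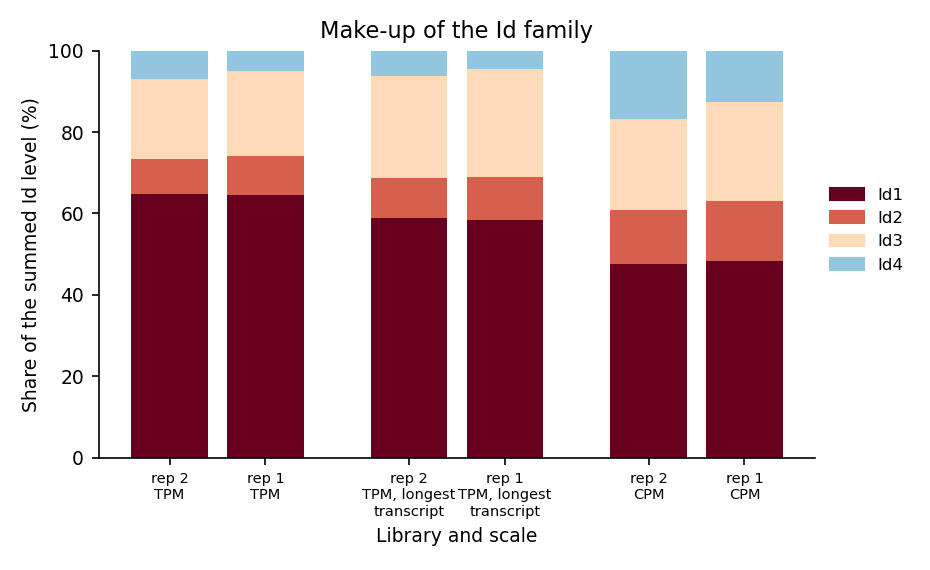
Share of each Id gene in the summed level of the 4 Id genes, in percent, as stacked bars for replicate 2 and replicate 1 on 3 scales. Id1 takes 64.8 and 64.6% in TPM, 59.0 and 58.4% with the longest transcript as the length and 47.6 and 48.3% in CPM.

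The order of the 10 genes by mean TPM was Id1 (97.8 ± 1.61), Smad7 (34.5 ± 5.27), Id3 (30.7 ± 0.919), Bmp4 (28.0 ± 0.0285), Bmpr1a (25.3 ± 0.318), Smad5 (15.0 ± 0.530), Id2 (13.6 ± 0.734), Id4 (9.11 ± 2.08), Bmpr2 (5.71 ± 0.138) and Smad1 (3.98 ± 0.0666), each as mean ± SD in TPM with n = 2. Of the 9 pairs of neighbours in this order, the ranges of the libraries overlapped only for Smad7 and Id3. Each range spans 2 values and leaves out counting error, so it does not settle the order of close neighbours such as Id3 and Bmp4 or Smad5 and Id2. With the longest transcript as the length, Id3 (33.8 TPM) stood above Smad7 (28.6 TPM), and the other places were the same. In CPM the order began with Bmpr1a, Smad7 and Id1, and Smad1 was again the last. No other gene was sought for a like pattern, since 2 libraries of 1 group hold no pattern across conditions.

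The wider pathway was read from a list of 73 other genes, of which 40 reached 1 CPM in both libraries and 7 had no count in either. All 12 intracellular regulators did, at a median log2(TPM + 1) of 5.32 in replicate 2 and 5.26 in replicate 1. Fkbp1a, whose product binds type I receptors and keeps them inactive, stood at 121 and 110.2 TPM, the co-repressor gene Skil at 63.9 and 62.9 TPM and the phosphatase gene Ctdsp2 at 58.6 and 63.9 TPM. Of the 50-base stretches in transcripts of Ctdsp2, 12.1% recur in other genes, so its value is uncertain. The nuclear envelope gene Lemd3 (12.6 and 13.0 TPM) and the ubiquitin ligase gene Nedd4l (7.59 and 8.13 TPM) were the lowest. Of the 14 extracellular antagonists and decoy receptor genes, 6 reached 1 CPM. Fstl1 stood at 71.1 and 62.4 TPM, Twsg1 at 22.6 and 25.2 TPM and the decoy receptor gene Bambi at 4.30 and 4.77 TPM, while Cer1 had no count. Nog, which encodes the BMP antagonist noggin, had 6 counts in replicate 2 and 12 in replicate 1. The twisted gastrulation protein, from Twsg1, is known both to hinder and to aid BMP signalling.

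Of the 10 other reported BMP targets, 4 reached 1 CPM in both libraries. Dusp9, a phosphatase gene that mouse embryonic stem cells induce through BMP and that limits ERK, stood at 132 TPM in replicate 2 and 120.4 TPM in replicate 1. Tbx3 stood at 50.9 and 44.9 TPM. The homeobox gene Dlx3, the next in mean TPM, had 0.921 and 1.95 TPM, and the differentiation genes Dlx5 and Runx2 had no count. The partners of Id proteins were present as well. The E protein gene Tcf3 stood at 98.3 TPM in replicate 2 and 106 TPM in replicate 1, Tcf12 at 8.61 and 8.36 TPM and Tcf4 at 5.74 and 4.99 TPM. The summed level of the 4 Id genes over that of the 3 E protein genes was 1.36 in replicate 2 and 1.26 in replicate 1 in TPM, but 0.964 and 0.912 with the longest transcript as the length and 0.351 and 0.334 in CPM. Which sum is the larger thus depends on the scale. Of the 8 lineage factor genes whose products pair with E proteins, 2 reached 1 CPM, Neurod1 (9.75 and 6.23 TPM) and Tal1 (1.16 and 1.03 TPM). Next came Atoh1 (0.218 and 0.337 TPM), and Myf5 had 1 count in replicate 2 and 0 in replicate 1. Exons of Neurod1 overlap those of Cerkl on the same strand, so its value is uncertain.

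**Figure D3:**
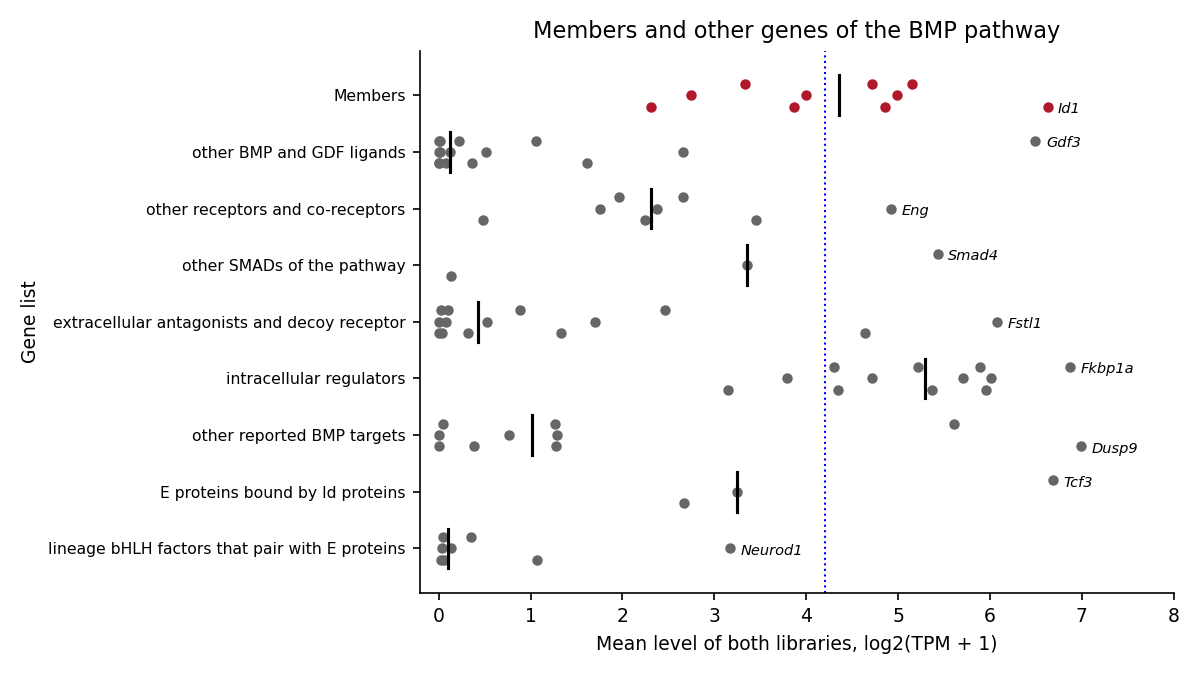
Mean level of both libraries as log2(TPM + 1) for the 10 genes (red, top row) and for 73 other genes of the pathway by role (grey), with 1 point per gene, the median of each row as a black bar and the highest gene named. The dotted line marks the median of all expressed protein-coding genes, 4.20; the rows of intracellular regulators and of the 10 genes have medians above it and the other rows below it.

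Replicate 2 was then set against replicate 1, which shows how far these levels differed between the libraries and compares their reads, not conditions. Smad7 and Id4 were higher in replicate 2, and the other 8 genes were not called. A binomial test of each gene's counts (exact, two-sided, adjusted over 19078 genes by the Benjamini-Hochberg method) called 2 of 10 members, while it called 24.2% of all tested genes (11.2% higher and 13.1% lower in replicate 2). Among the 10125 genes with at least 500 counts in total, a group that includes all 10 members, it called 36.5%. The count of members called is thus near or below the background and is no result about the set. Log2 ratios had a median size of 0.06 among the members and 0.12 among the 13553 genes with at least 100 counts. That group includes genes with fewer counts than any member, so the medians do not cover a like range of counts.

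Smad7 stood at 62.7 CPM (95% exact Poisson interval 59.9 to 65.7) in replicate 2 and 50.3 CPM (47.9 to 52.7) in replicate 1, which is 0.32 ± 0.05 (SE from counting) on the log2 scale (exact binomial test, adjusted p = 1.11e-09). Id4 stood at 14.8 CPM (13.5 to 16.3) in replicate 2 and 10.6 CPM (9.58 to 11.8) in replicate 1, which is 0.48 ± 0.10 on the log2 scale (exact binomial test, adjusted p = 3.97e-05). For both genes the intervals of the libraries did not overlap. These intervals and the exact binomial test cover counting error only. Against the spread between these libraries, edgeR's exact test gave an adjusted p of 1.00 for each of them and called 0.456% of all genes (0.115% higher and 0.341% lower in replicate 2), and no member. That test takes both libraries as 1 group, so differences between them enter its estimate of the spread. Differences of this size can thus go uncalled in that test, and the lack of a call does not show equal levels. Ago1, which is among the genes it called, was also higher in replicate 2, and its part in the values of Smad7 and Id4 was not tested.

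Of the other 3 Id genes none was called. The log2 ratios were 0.04 for Id1 (95% counting interval -0.07 to 0.15), -0.11 for Id2 (-0.31 to 0.10) and -0.06 for Id3 (-0.22 to 0.10), and the exact binomial test gave them adjusted p-values of 0.705, 0.538 and 0.711. The interval of Id4, 0.27 to 0.68, overlapped none of them, although the difference between Id genes was not tested itself. The ligand, receptors and transducers had log2 ratios between 0.01 for Bmp4 and 0.08 for Smad5. Their 95% counting intervals all lay between -0.20 and 0.28, both bounds being those of Smad1, the member with the fewest counts.

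**Figure D4:**
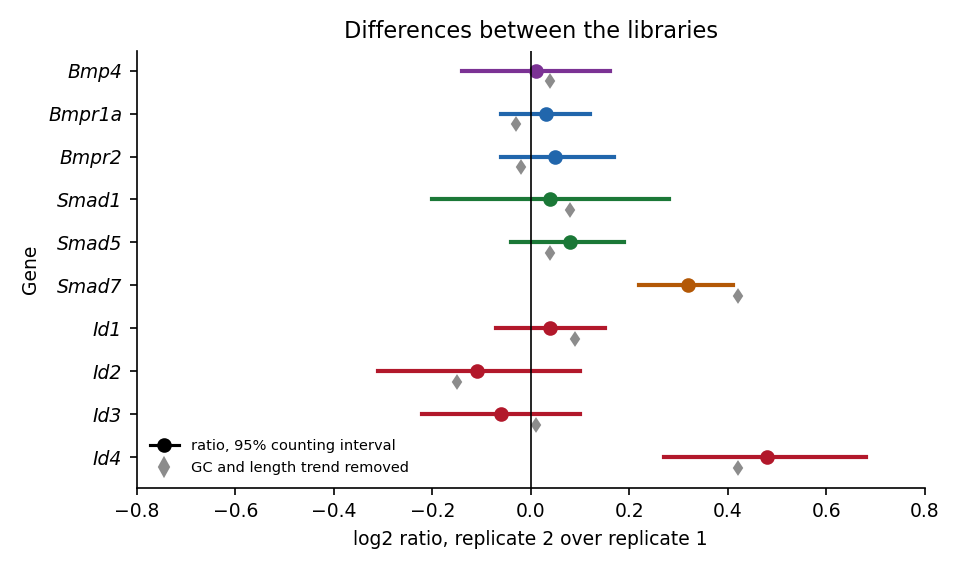
Log2 ratio of replicate 2 over replicate 1 for each gene (points) with its 95% counting interval (lines), and the ratio after a trend on GC content and length was removed (grey diamonds). The intervals of Smad7 and Id4 lie above 0, and those of the other 8 genes include it.

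Of 51 other pathway genes tested, 7 were higher and 5 lower in replicate 2 in the exact binomial test, and edgeR's exact test called none. The 12 calls are a share near the 24.2% of all genes and no result about the pathway. Among the called genes, 2 had a log2 ratio of at least 0.5 in size: Neurod1 (0.65, adjusted p = 8.97e-06 in the exact binomial test) and Dlx3 (-1.06, adjusted p = 0.00608 in that test). Dlx3 had 26 counts in replicate 2 and 64 in replicate 1. Gdf3 (0.26) and Tbx3 (0.18) were also higher, and Eng (-0.34) was lower.

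Sequence next to the Id4 start is shown because Id4 was the Id gene called in the exact binomial test, though not in edgeR's. That of the ligand gene Bmp4 is shown beside it. The windows are the 250 bases before the RefSeq start of each gene (GRCm38.p6), read along the gene. Both are free of annotated exons. Capitals mark exact matches on either strand to GGCGCC (a GC-rich SMAD element), CAGAC (the SMAD box), CANNTG (the E-box), TATAAA (the TATA box), CCAAT (the CCAAT box) or GGGCGG (the GC box).
Id4, chr13:48260866-48261115, plus strand: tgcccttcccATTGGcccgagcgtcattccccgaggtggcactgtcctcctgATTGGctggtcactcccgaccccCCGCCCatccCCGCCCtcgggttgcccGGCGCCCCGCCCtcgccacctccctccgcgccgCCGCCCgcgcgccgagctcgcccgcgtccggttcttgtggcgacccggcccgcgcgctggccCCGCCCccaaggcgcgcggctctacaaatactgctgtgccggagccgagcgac
Bmp4, chr14:46390670-46390919, minus strand: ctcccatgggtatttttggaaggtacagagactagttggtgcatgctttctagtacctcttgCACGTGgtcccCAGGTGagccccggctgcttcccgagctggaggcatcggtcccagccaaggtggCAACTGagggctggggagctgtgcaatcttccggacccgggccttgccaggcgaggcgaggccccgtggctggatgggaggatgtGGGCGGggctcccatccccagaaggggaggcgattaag
The Id4 window held 1 GGCGCC, directly followed by a GC box, with 5 GC boxes and 2 CCAAT matches, and no E-box. The Bmp4 window held 3 E-boxes and 1 GC box. Over the windows of 27025 genes, 9.54% held GGCGCC, 66.0% an E-box, 42.1% a SMAD box, 32.9% a GC box, 34.5% a CCAAT match and 13.0% TATAAA. The GC content was 75.6% in the Id4 window and 63.2% in the Bmp4 window, beside a median of 52.0%. Windows of 8 members were read, those other than Id1 and Smad7. At least 1 window of Bmpr1a, Bmpr2, Smad5 and Id2 also held GGCGCC, and those of Bmp4, Smad1 and Id3 held none. The members' windows had a GC content of 60.0 to 78.8%. Shares among windows of like GC content were not taken, so nothing is read from these matches about the set. The Bmpr2 window lay wholly within annotated exons. The shares over all genes used 1 window per gene, while Smad5 had more than 1. These are matches of letters near the start and show no bound factor.

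Positions of the members were read against their neighbours. Of the 20 nearest tested protein-coding genes on either side, 4 were higher and 3 lower in replicate 2 in the exact binomial test, beside 24.2% called of all genes and 36.5% of those with at least 500 counts, and edgeR's exact test called none. The neighbours of Smad7 had log2 ratios of -0.20 (Dym) and -0.36 (Ctif), and those of Id4 had -0.48 (Rnf144b) and 0.10 (Zfp169). Nothing is read from these counts about the members' surroundings. Exons of Id4, Bmp4, Bmpr1a and Smad5 overlap those of small annotated genes, and those of them in the count tables had 0 to 2 counts per library.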

How the data were processed

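Sequencing libraries of polyA RNA used an Illumina TruSeq kit and a reverse-stranded protocol, per the labels' protocols. STAR 2.4.2a and mm10 (GRCm38) were used, per the submitters' processing notes. The deposited files hold raw counts per Ensembl gene, as the authors made them; the counter, its use of strand and its gene models are not given in the files or labels, so reads of overlapping or antisense genes may be shared. GENCODE M21, of the same build, named 47224 of the 47643 IDs.

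CPM used the total of gene counts and TPM the union of annotated exons. Depth was 29789560 counts in replicate 2 and 34798975 in replicate 1. The ratio of replicate 2 to replicate 1 was tested per gene with an exact two-sided binomial test (SciPy 1.17.1) at TMM-scaled library sizes over genes with at least 10 counts, with a pseudocount of 0.5 counts in log2 ratios, Benjamini-Hochberg adjustment and a threshold of 0.05. edgeR 4.0.16 gave TMM factors and an exact test with a trended dispersion estimated from both libraries as 1 group. DESeq2 1.42.0 gave other size factors. As an alternative, log2 ratios were freed of trends on GC content and length by lowess (fraction 0.3). The tests were tried on simulated counts.

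The members, the lists of pathway genes and markers and the tests were chosen with earlier results of these data known. The named genes were all members, the 3 highest and 2 lowest of each role in the pathway list, listed genes past the test with a log2 ratio of at least 0.5 in size, the members' neighbours and the labelled targets; not all are given in the text. Gdf3, Tbx3 and Eng were named among the called genes of the pathway by choice. Shares over genes with at least 500 counts and the counts of calls after trend removal, and the Id and E protein sums on other scales, were chosen after seeing the data.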

Additional observations from a re-analysis of the deposited data

How the results depend on the processing

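The 2 calls among members and the 4624 calls among all genes were lost or reduced with edgeR's exact test, which called 0 members and 87 genes. They stayed within 1.5 times of these counts under size factors from DESeq2, plain totals, no or a stricter count filter, a threshold of 0.01 and trend removal (2 members in each). Of 50 member ratios under 5 alternatives, 45 kept direction and call. With the GC and length trend removed, the ratio changed sign for Bmpr1a (-0.03), Bmpr2 (-0.02) and Id3 (0.01), none of them called, and was 0.42 for both Smad7 and Id4. Leaving out 1 library leaves no ratio between libraries. The Id share of the 10 genes was 27.7% in CPM, where length is ignored, and 56.6 to 58.1% without either library. Of the Id level, Id1 took 58.7% with the longest transcript and 48.0% in CPM, Id2 10.1 and 14.0%, Id3 25.8 and 23.2%, and Id4 14.8% in CPM. The 40 expressed pathway genes became 31 to 43 under other thresholds, and 40 to 42 without either library. No paired analysis was possible because both libraries belong to 1 group. Counting error limits Smad1, Id2 and Id4 most, and 2 libraries give a poor estimate of the spread.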
